A study of Homo sapiens with 6 samples.

Results

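Progress of a cell from G1 into S phase is run by a small set of genes, and 10 of them were followed here in HCC2814 cells, a human lung squamous cell carcinoma (LUSC) line, with and without CRISPR targeting of MLST8. The set was chosen by gene name, with earlier results of these data known. It holds the D cyclins CCND1, CCND2 and CCND3, the E cyclins CCNE1 and CCNE2, the kinases CDK4 and CDK6, and the CIP/KIP inhibitors CDKN1A, CDKN1B and CDKN1C. All 10 were among the 17448 genes listed, and 9 of them were among the 12951 genes that passed the filter on low counts; CCND2 did not pass.

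RNA-seq with polyA selection was performed on 3 WT and 3 MLST8-KO samples of HCC2814 cells. MLST8-KO cells (genotype mLST8 KO in the labels) received guide RNA against MLST8, and WT cells received non-targeting control guide RNA. Both groups had the guide for 48 to 72 hours and then went through antibiotic selection, so the controls carry the vector and the selection too. The KO cells were made with lentiviral CRISPR, and the samples were taken from 1 cell line. The study numbers several control and several MLST8 guides for this line, and whether the sample numbers stand for those guides is not given in the sources used here. Nothing in the labels ties samples to separate guides, clones or cultures, so p-values measure the spread between these 6 samples, which may be technical or may include differences between guides.

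D cyclins bind CDK4 or CDK6 and, with the E cyclins and CDK2, phosphorylate RB1 and its relatives, which frees E2F factors to switch on S phase genes. The INK4 proteins block CDK4 and CDK6, whereas the CIP/KIP proteins p21 (CDKN1A), p27 (CDKN1B) and p57 (CDKN1C) bind cyclin-CDK complexes and mainly restrain CDK2. Growth factor signalling through PI3K and AKT is known to act on this set at several points, among them the turnover of cyclin D1 and the location and stability of p21 and p27 protein, none of which is read by RNA counts.

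MLST8, which encodes a subunit of both mTOR complexes, was read at 874, 827 and 842 estimated counts in WT and at 396, 629 and 401 in MLST8-KO cells, with values here and in what follows given in the order of replicates 1, 2 and 3. All 3 KO libraries were below all 3 WT libraries, with replicate 2 the highest of the KO group. The log2 fold change was -0.96 (SE 0.15, adjusted p = 0.00339 by the quasi-likelihood test of edgeR, with Benjamini-Hochberg correction over all genes tested), and without MLST8-KO replicate 1 it was -0.86 (edgeR, adjusted p = 0.0216). A guide that cuts DNA does not have to lower the RNA, so the remaining counts do not measure remaining protein.

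Libraries held 14381673 to 15744154 counts. The floor given for a count of 0 covers counting error only, whereas the 95% confidence intervals of fold changes also include the spread between libraries. Across the 12951 genes tested, 2116 were called higher and 2030 lower. WT replicates 1 and 3 were the pair of same-group libraries that stood furthest apart (chi-square per gene 26.5, against 6.98 to 10.2 in the other pairs). Of 10 squamous epithelial markers, 8 were called higher in MLST8-KO cells, and their summed level was 11990 to 19010 TPM in WT and 24030 to 26840 TPM in KO libraries. MLST8-KO replicate 1 held 3848 counts of 8 liver genes, against 75 and 48 in the other KO libraries and 11 to 101 in WT libraries. PTPRC, the defining leukocyte gene, had 0 or 1 count per library. The part of the squamous and liver transcripts in the results was not tested, and values without MLST8-KO replicate 1 are given beside the call of MLST8 and those of the G1 genes. In bulk RNA, fewer cells of a state and less RNA per cell cannot be told apart.

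Promoter letters are shown for CDK4, CDKN1A, CDKN1B and CCND3, which between them hold a kinase and an inhibitor that were called in opposite directions, a called p27 gene, and a D cyclin that was not called. RefSeq windows from 250 bases before to 50 after a start were held for 6 of the 10 genes, 9 windows in all (GRCh38.p14). Each sequence runs 5′ to 3′ on the strand of its gene, with capitals on a matched motif. The E-box and the GC box were added to the search after the sequences had been seen.

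The CDK4 window held 3 copies of the E-box CACGTG, the letters bound by MYC and MAX, and 2 of them lie within this stretch of chr12:57752499-57752528 (minus strand).

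CDK4 upstream: gtCACGTGtgatagcaacagatCACGTGgc

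The third E-box lies closer to the start, at chr12:57752394-57752423 (minus strand).

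CDK4 proximal: atgggtggcggtCACGTGcccagaacgtcc

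CDKN1A held 4 copies of the GC box GGGCGG, the letters bound by SP1, in chr6:36678603-36678632 and chr6:36678660-36678689 (plus strand), the last 2 of them sharing a base.

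CDKN1A upstream: ccggggaGGGCGGtcccGGGCGGcgcggtg

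CDKN1A proximal: ggcgggcccGGGCGGGGCGGttgtatatca

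CDKN1B held 1 GC box, in chr12:12717285-12717314 (plus strand).

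CDKN1B proximal: ccagcctcggcgGGGCGGctcccgccgccg

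One CCND3 window held the FOXO letters GTAAACA across its start, in chr6:42048672-42048701 (minus strand). FOXO factors are transcription factors that AKT keeps out of the nucleus.

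CCND3 start: gcgcggactttGTAAACActtcgccactgc

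The stretches of CDK4, CDKN1B and CCND3 overlap an annotated exon of a transcript of the same gene in GENCODE. Of the CDKN1A stretches, only 1 does. Searched on both strands over 35116 RefSeq promoter windows of the same length, the E-box was found in 7.26%, the GC box in 45.0% and the FOXO letters in 3.42%. The E2F letters TTTCCCGC or TTTGGCGC were in 2.27% of all windows, the CRE letters TGACGTCA in 1.85% and the p53 decamer in 6.63%. None of these last motifs matched in the 9 windows held. No window was held for CCND1, CCND2, CCNE2 or CDKN1C, so these genes were not searched for any motif. GC boxes did not set the genes apart: all 6 genes with a window held at least 1, with 9 matches over 2 windows of CCND3, 7 in CCNE1, 4 in CDKN1A, 3 each in CDK4 and CDK6 and 1 in CDKN1B. An E-box was also found in CDK6, with 1 match. A match is only a match of letters, and its absence says nothing about a factor's binding elsewhere.

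Of the 9 G1 genes tested, CCNE2, CDK4 and CDKN1B were called higher in MLST8-KO cells, CDKN1A was called lower, and 5 had no call. Among all genes tested, 16.3% were called higher and 15.7% lower, so the 3 and 1 of 9 are small numbers beside a broad background. Every KO library was above every WT library in CPM (counts scaled to library size after TMM) for 3 of the 9, CCNE2, CDK4 and CDK6, and below for 1, CDKN1A; over all genes these shares were 24.8% and 24.2%. The median log2 fold change of the 9 was 0.25, and that of all genes tested was 0.005. By DESeq2, which calls 13.5% of its genes higher and 14.6% lower, 3 of the G1 genes were called higher and 1 lower, with CCND1 in place of CDKN1B.

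**Figure D1:**
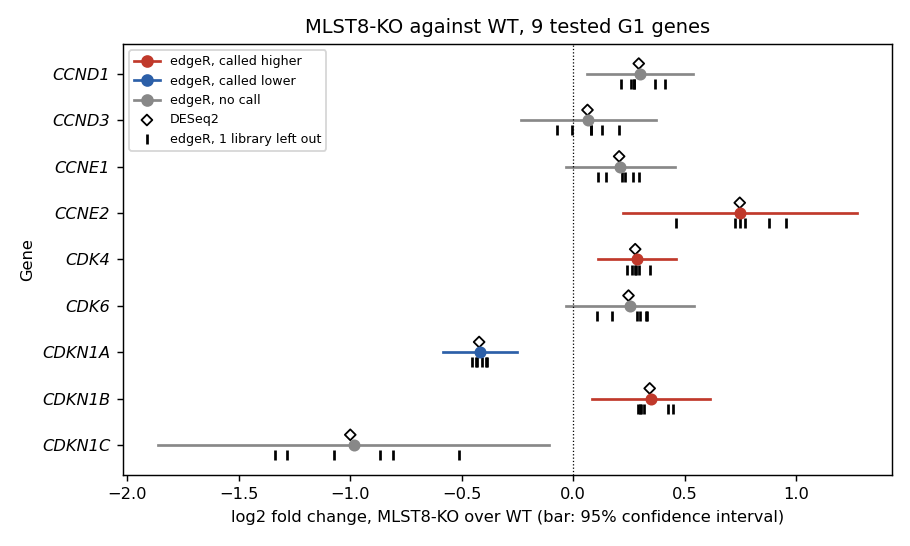
The x axis gives the log2 fold change of MLST8-KO over WT for the 9 tested G1 genes on the y axis. Circles are edgeR estimates with 95% confidence intervals, diamonds are DESeq2, and ticks leave out 1 library each. The intervals of CCND3, CCNE1 and CDK6 cross 0, the ticks of CCND3 lie on both sides of 0, and the CDKN1A estimates stay between -0.45 and -0.39.

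CCND1 (chr11:69641087-69654474, plus strand, GRCh38) encodes cyclin D1, the D cyclin most often raised by growth factors. It was read at 5114, 4139 and 3609 counts in WT and at 5828, 6224 and 5132 counts in MLST8-KO. In raw counts every KO library was above every WT library, but in CPM the lowest KO value, 329, was under the highest WT value, 339. The log2 fold change was 0.30 (SE 0.11, 95% confidence interval 0.06 to 0.54), and edgeR's adjusted p was 0.0543, just outside the threshold of 0.05. DESeq2 put it inside (adjusted p = 0.0333), as did edgeR without WT replicate 1 (log2 fold change 0.41, adjusted p = 0.00467), upper quartile scaling (adjusted p = 0.0356) and limma on log2(TPM + 1) (adjusted p = 0.0268). Upper quartile scaling and limma also moved all genes upward, with median log2 fold changes of 0.059 and 0.092. The median of the main edgeR fit was 0.005. Without MLST8-KO replicate 1 edgeR's adjusted p was 0.157. The gene's end overlaps 1399 bases of LTO1 on the opposite strand, which had 386 to 496 counts per library, and whether counting used strand is not given in the sources used here. LTO1 itself was called lower in MLST8-KO cells (log2 fold change -0.37, edgeR, adjusted p = 0.0154).

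CCND3 (chr6:41934933-42050357, minus strand), the cyclin D3 gene, was read at 743, 618 and 458 counts in WT and 667, 647 and 751 counts in MLST8-KO. The groups overlapped, and in CPM WT replicate 1 was the highest and WT replicate 3 the lowest of all 6 libraries. Its log2 fold change of 0.07 had a 95% confidence interval from -0.23 to 0.37 (edgeR, adjusted p = 0.721), which leaves room for a moderate change either way. The sign turned to -0.07 without WT replicate 3 and to -0.01 without MLST8-KO replicate 3.

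CCND2 (chr12:4273772-4305350, plus strand), the cyclin D2 gene, had 4, 1 and 1 counts in WT and 12, 0 and 1 counts in MLST8-KO. It was not tested. The limit that a count of 0 allows is 3 counts, which is 0.209 CPM for the library with the fewest reads, so 5 of the 6 libraries were at or near that floor and MLST8-KO replicate 1, the library with liver transcripts, held most of the reads.

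Between genes, levels were compared only per length, in TPM. CCND1 made up 76.5% ± 1.65 of the summed D cyclin TPM in WT and 79.1% ± 2.95 in MLST8-KO cells (mean ± SD, n = 3 each), and these shares overlapped (exact two-sided permutation p = 0.2). The D cyclin sum was 194, 165 and 139 TPM in WT and 219.5, 224 and 194.5 TPM in MLST8-KO. The lowest KO sum, 194.5 TPM, lay only just above the highest WT sum, 194.1 TPM. The geometric mean of the sums was 1.29-fold higher in MLST8-KO cells (exact two-sided permutation p = 0.1). That is the smallest p that 3 against 3 can give. Summed in FPKM or CPM, the difference fell to 0.32 or 0.28 on the log2 scale, from 0.37 in TPM (exact two-sided permutation p = 0.2 for each).

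**Figure D2:**
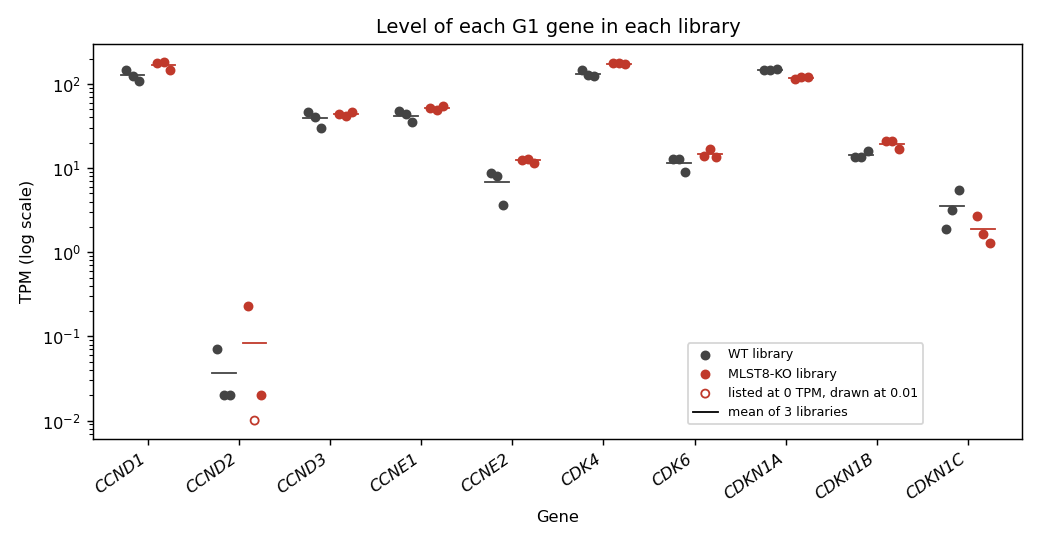
Each point is 1 library, with TPM on a log y axis and the 10 G1 genes along the x axis; lines are group means. CDKN1A is the one of the 3 most abundant genes that sits lower in the MLST8-KO libraries, at 115 to 121 TPM against 146 to 149.9 TPM in WT, and CCND2 lies far below the rest.

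CCNE1 and CCNE2 encode the E cyclins, which activate CDK2 late in G1. CCNE1 (chr19:29811898-29824308, plus strand) had 677, 606 and 479 counts in WT and 719, 699 and 794 counts in MLST8-KO. In CPM the groups overlapped, since MLST8-KO replicate 2, at 43.2, was below WT replicate 1, at 44.9. Its fold change on the log2 scale was 0.21 (95% confidence interval -0.03 to 0.46, edgeR, adjusted p = 0.164).

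CCNE2 (chr8:94879770-94896678, minus strand) had 189, 169 and 75.8 counts in WT and 259, 278 and 252 counts in MLST8-KO. The groups did not overlap, the 3 KO libraries lay close together, and WT replicate 3 was far under the other WT libraries. Its log2 fold change of 0.75 was the largest rise among the G1 genes (SE 0.24, 95% confidence interval 0.22 to 1.27, edgeR, adjusted p = 0.0359). The fold change was 0.46 without WT replicate 3 (adjusted p = 0.0189). The call was lost without WT replicate 2 (adjusted p = 0.0614) and without MLST8-KO replicates 1, 2 or 3 (0.0917, 0.103 and 0.0860). Counts of this gene were not whole in all 6 libraries, as happens where reads are shared out between genes, and it overlaps INTS8 by 1977 bases and NDUFAF6 by 912 bases on the opposite strand. INTS8 had 583, 514 and 416 counts in WT and 549, 691 and 596 counts in MLST8-KO. The level of CCNE2 is uncertain to that extent.

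The summed E cyclin level was 56.0, 52.2 and 38.9 TPM in WT and 64.2, 62.0 and 66.0 TPM in MLST8-KO. All KO sums were above all WT sums, 1.32-fold in the geometric mean (exact two-sided permutation p = 0.1, the smallest possible). On the log2 scale the difference was 0.403 in TPM, and it was smaller in FPKM (0.359) and CPM (0.352). CCNE2 supplied 15.6%, 15.6% and 9.48% of the TPM sum in WT and 19.7%, 20.9% and 17.5% in MLST8-KO cells, so CCNE1 remained the larger part in every library. That share was not tested, as it was added after the values had been seen.

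CDK4 (chr12:57747727-57756013, minus strand) encodes a D cyclin kinase. It had 2256, 1895 and 1859 counts in WT and 2623, 2679 and 2651 counts in MLST8-KO. The KO libraries spanned a narrow range, all above the WT libraries. Its log2 fold change was 0.28 (SE 0.08, 95% confidence interval 0.11 to 0.46, edgeR, adjusted p = 0.0222), a rise of 21.8%. The call was lost without WT replicate 2 (adjusted p = 0.114) and without MLST8-KO replicates 1, 2 or 3 (0.0792, 0.0574 and 0.0589), while the fold change stayed between 0.24 and 0.34. CDK4 shares 2485 bases with TSPAN31 on the opposite strand, and counts of CDK4 were not whole in all 6 libraries. TSPAN31 had 447, 469 and 586 counts in WT and 427, 414 and 439 counts in MLST8-KO. Whether reads shared between these genes bear on the CDK4 call was not tested.

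CDK6 (chr7:92604921-92836594, minus strand), the other D cyclin kinase, had 1237, 1201 and 817 counts in WT and 1291, 1593 and 1327 counts in MLST8-KO. In CPM the lowest KO value of 83.3 was just above the highest WT value of 82.7, and WT replicate 3 was far lower. With a log2 fold change of 0.25 (95% confidence interval -0.03 to 0.54), CDK6 had no call by edgeR (adjusted p = 0.156).

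Transcripts of CDK6 are long, and per length CDK4 held 92.0% ± 1.34 of the summed CDK4 and CDK6 TPM in WT and 92.2% ± 0.756 in MLST8-KO cells (mean ± SD, n = 3 each, exact two-sided permutation p = 1.0). The sum was 159, 140.4 and 135 TPM in WT and 190.2, 193 and 185 TPM in MLST8-KO, with no overlap. This sum was added after the values had been seen and was not tested.

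**Figure D3:**
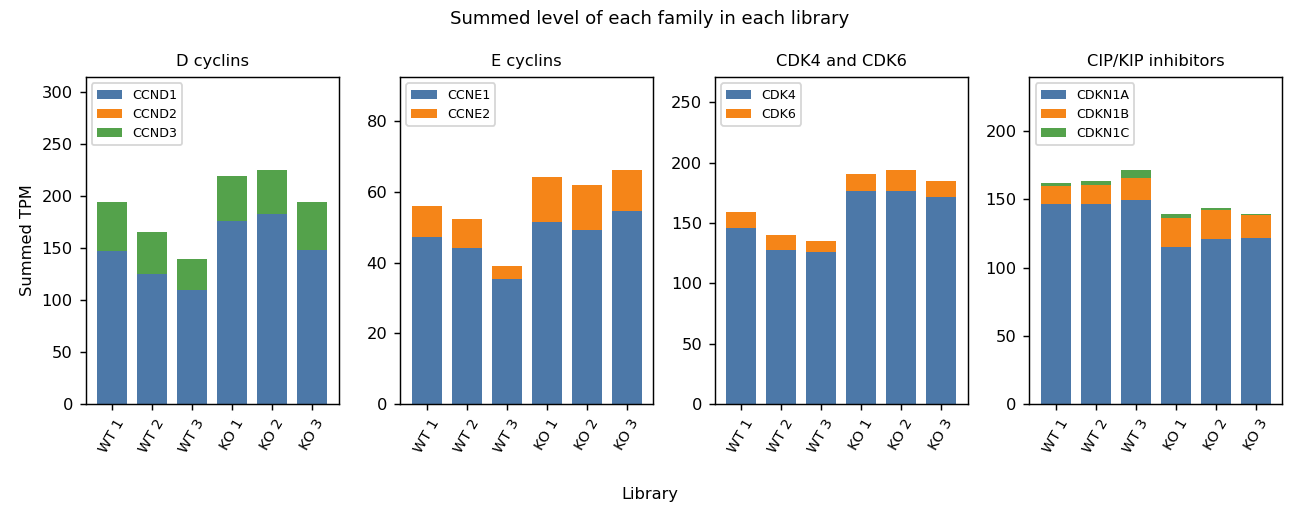
Bars give the summed TPM of the D cyclins, E cyclins, CDK4 with CDK6, and CIP/KIP inhibitors on the y axis for each of the 6 libraries on the x axis, with colours for the genes. The first 3 families are higher in each MLST8-KO library than in any WT library and the CIP/KIP sum is lower, at 139 to 144 TPM against 162 to 171 TPM.

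CDKN1A (chr6:36676460-36687339, plus strand) encodes p21, an inhibitor that p53 induces, and it had the highest mean TPM of the G1 genes in WT cells. It was read at 2458, 2371 and 2403 counts in WT and at 1866, 1994 and 2044 counts in MLST8-KO. Each group spanned a narrow range, and every KO library was below every WT library. The log2 fold change was -0.42 (SE 0.08, 95% confidence interval -0.58 to -0.25, edgeR, adjusted p = 0.00482), or 0.749 of the WT level. The call held in all 6 fits that left out 1 library, with log2 fold changes from -0.45 to -0.39 and adjusted p from 0.00182 to 0.0320, the highest of them without MLST8-KO replicate 1.

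CDKN1B (chr12:12715058-12722371, plus strand) encodes p27, which restrains CDK2 in cells that have left the cycle. It had 269, 255 and 299 counts in WT and 400, 408 and 336 counts in MLST8-KO. In raw counts the groups did not overlap, but in CPM MLST8-KO replicate 3, at 21.5, met WT replicate 3, at 21.6. The log2 fold change was 0.35 (SE 0.12, 95% confidence interval 0.08 to 0.61, edgeR, adjusted p = 0.0477). This call lay at the threshold. It was lost with DESeq2 (adjusted p = 0.0718), and with edgeR without WT replicates 1 or 2 (0.0800 and 0.176) or MLST8-KO replicates 1 or 2 (0.167 and 0.134).

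CDKN1C (chr11:2883213-2885773, minus strand) encodes p57 and is an imprinted gene, expressed mainly from the maternal copy. It had 26, 40 and 68 counts in WT and 35, 21 and 18 counts in MLST8-KO. MLST8-KO replicate 1 was above WT replicate 1, so the groups overlapped. Its log2 fold change of -0.99 was the largest in size among the G1 genes, but the counts were few and the interval wide (SE 0.40, 95% confidence interval -1.86 to -0.11, edgeR, adjusted p = 0.0790). Without WT replicate 1 the value was -1.28 and was called (adjusted p = 0.00891). Without WT replicate 3 it was -0.51 (adjusted p = 0.305). The genes whose log2 CPM followed CDKN1C most closely over the 6 samples were NDUFA6 (Pearson r = 0.997), PSTK (0.996) and ELP2 (0.990), none of which was called. With 6 points in 2 groups and 12951 genes searched, these values are a description.

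The CIP/KIP genes thus did not move as 1 group, since CDKN1A was lower and CDKN1B was called higher at the threshold. Their summed level was 162, 163 and 171 TPM in WT and 139, 144 and 139.6 TPM in MLST8-KO. All KO sums were below all WT sums, 0.851-fold in the geometric mean (exact two-sided permutation p = 0.1, the smallest possible). On the log2 scale the difference was -0.233 in TPM, and it was larger in FPKM (-0.276) and CPM (-0.325). CDKN1A supplied 89.3% ± 1.53 of the TPM sum in WT and 84.7% ± 2.04 in MLST8-KO cells, without overlap (mean ± SD, n = 3 each, exact two-sided permutation p = 0.1).

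The ratio of the D cyclin sum to the CIP/KIP sum was 1.20, 1.01 and 0.814 in WT and 1.58, 1.56 and 1.39 in MLST8-KO. It did not overlap between the groups. Its geometric mean was 1.51-fold higher in MLST8-KO cells (exact two-sided permutation p = 0.1, the smallest possible).

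The order of the levels in TPM also differed. In WT cells CDKN1A led at 148 ± 1.94 TPM, ahead of CDK4 at 133 ± 11.2 and CCND1 at 127 ± 18.98 (mean ± SD, n = 3 each). CDK4 and CCND1 were not separated, and CCND1 also overlapped CDKN1A, since it was the higher of that pair in WT replicate 1 (147.03 against 146.34 TPM). In MLST8-KO cells CDK4 at 175 ± 3.06 and CCND1 at 169 ± 18.7 TPM were not separated from each other, and both were above CDKN1A at 119 ± 3.37 TPM. Below these, CCNE1 at 42.2 ± 6.22 and CCND3 at 39.3 ± 8.55 TPM overlapped in WT cells, whereas in MLST8-KO cells CCNE1 at 51.7 ± 2.70 was separate from CCND3 at 44.1 ± 2.79. CDKN1B, CDK6, CCNE2, CDKN1C and CCND2 followed in that order in both groups, with CCNE2 and CDKN1C overlapping in WT cells.

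Genes around the G1 set were read as lists, each described by its counts against the 16.3% higher and 15.7% lower of all genes. Of 4 INK4 inhibitors, 2 were higher and 0 lower: CDKN2C (p18), at 107, 96.0 and 85.0 counts in WT and 210, 172 and 216 in MLST8-KO, rose by 0.94 on the log2 scale (adjusted p = 0.00362), and CDKN2B (p15) by 0.78 (adjusted p = 0.00494). Both calls held in all 6 fits that left out 1 library. CDKN2A had no call by edgeR (log2 fold change 0.21, adjusted p = 0.0544). Of the 3 pocket proteins only RBL1 (p107) was called, with a rise of 0.66 (adjusted p = 0.0129), and it lost its call without WT replicate 2 or MLST8-KO replicates 1 or 2 (adjusted p up to 0.0596). RB1 had a log2 fold change of 0.26 (adjusted p = 0.0991).

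Of 10 E2F and DP factors, 5 were higher and 1 was lower, with a median log2 fold change of 0.40. E2F8, a repressor of the atypical type, rose by 1.17 (SE 0.28, edgeR, adjusted p = 0.0120), a call lost without MLST8-KO replicate 2 (adjusted p = 0.0560). E2F1, the best known activator, rose by 1.10 (SE 0.17, adjusted p = 0.00355), and E2F6, a repressor, fell by 0.44 (SE 0.09, adjusted p = 0.00745). The calls of E2F1 and E2F6 held in all 6 fits that left out 1 library. Leaving out WT replicate 2 or MLST8-KO replicate 1 reduced the higher genes of this list to 3, and leaving out MLST8-KO replicate 2 reduced them to 2.

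The list of 20 E2F target genes of S phase held 19 higher genes and 0 lower, with a median log2 fold change of 0.80. In all 20, every KO library was above every WT library in CPM, against 24.8% of all genes tested. The list was chosen with earlier results of these data known, so these counts describe it and give no independent support. RNA levels also do not give the rate of cell division. The study itself reported modestly lower viability of MLST8-KO HCC2814 cells in culture. GINS1, named after its values were seen, was the gene without a call (0.35, adjusted p = 0.0889). The largest rise was that of MCM5, a subunit of the replicative helicase, at 390, 252 and 161 counts in WT and 772, 851 and 728 counts in MLST8-KO (log2 fold change 1.44, SE 0.21, edgeR, adjusted p = 0.00317), a call that held in all 6 fits that left out 1 library. Leaving out 1 library left 17 to 20 higher genes in the list, while calls over all genes ranged from 971 to 2692 higher.

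As a mean over these 20 genes, log2 CPM relative to the WT mean was 0.27, 0.03 and -0.30 in WT and 0.73, 0.84 and 0.74 in MLST8-KO. The KO libraries lay together and the WT libraries were spread, with WT replicate 3 the lowest, as it also was in CPM for CCND1, CCND3, CCNE1, CCNE2 and CDK6. Each G1 gene's own values stand beside this index without a correlation, since library and group are shared.

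Of 7 genes of CDK2 and its activators, 2 were higher and 0 lower. CCNA2, the S phase cyclin A, rose by 0.59 (SE 0.15, edgeR, adjusted p = 0.0154) and CDK2 rose by 0.43 (SE 0.10, adjusted p = 0.0113). The CCNA2 call was lost without WT replicate 2 or MLST8-KO replicates 1 or 2 (adjusted p up to 0.0670), and that of CDK2 without WT replicate 2 or MLST8-KO replicate 2 (adjusted p up to 0.0533). The list's median was -0.07, as CDK7, CCNH, MNAT1 and CCNA1 had values below 0 with no call.

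Of 9 genes for SCF ubiquitin ligase parts and D cyclin turnover, 0 were higher and 2 lower, with a median of -0.18. FBXW7, the receptor through which cyclin E is degraded, fell by 0.35 (SE 0.11, edgeR, adjusted p = 0.0327), and FBXO31, a receptor for cyclin D1, fell by 0.30 (SE 0.10, adjusted p = 0.0460). Neither call is firm: the list had 0 lower genes in DESeq2 and in each fit that left out WT replicates 2 or 3 or any MLST8-KO replicate, with adjusted p up to 0.108 for FBXW7 and up to 0.142 for FBXO31. FBXO31 also lost its call without WT replicate 1. SKP2, the receptor for p27, had a log2 fold change of 0.10 (adjusted p = 0.427).

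**Figure D4:**
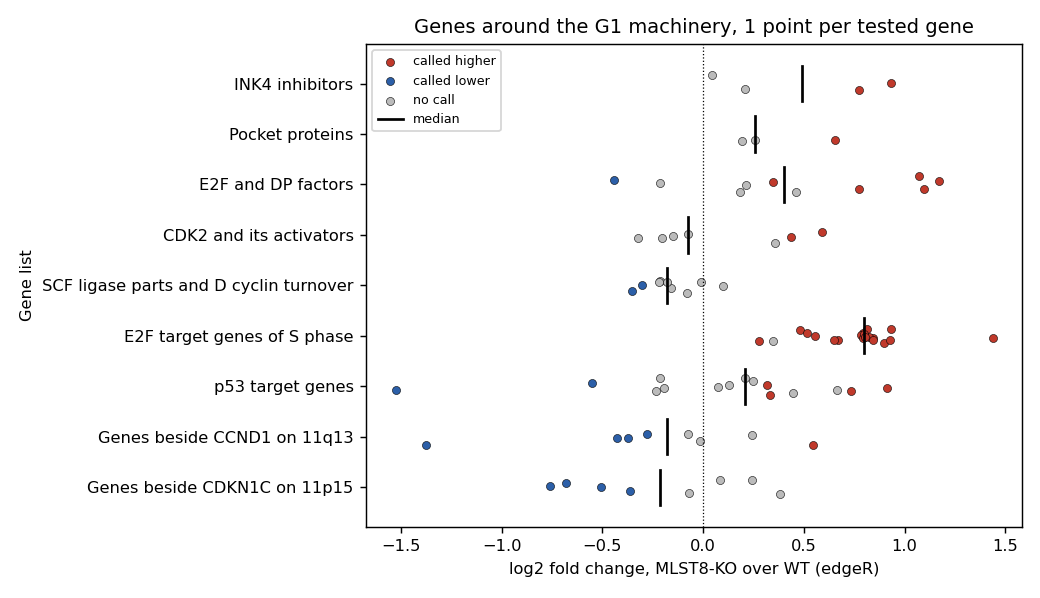
Each point is a tested gene, with its edgeR log2 fold change of MLST8-KO over WT on the x axis and its list on the y axis; colours mark calls and bars mark medians. The E2F target genes cluster around a median of 0.80 with 19 of 20 called higher, and the p53 target genes spread to both sides of 0.

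CDKN1A is a p53 target, so 15 other p53 target genes were read beside it. Of these 4 were higher, 2 lower and 9 without a call, and the median log2 fold change was 0.21. GDF15, a secreted stress factor, had 671, 761 and 1076 counts in WT and 253, 317 and 386 in MLST8-KO, and fell by 1.52 (SE 0.21, edgeR, adjusted p = 0.00281), a call that held in all 6 fits that left out 1 library. TP53INP1 rose by 0.92 (SE 0.22, adjusted p = 0.0133), a call lost without WT replicate 2 or MLST8-KO replicates 1 or 2 (adjusted p up to 0.0602). MDM2, the p53 ligase, had a log2 fold change of 0.07 (95% confidence interval -0.10 to 0.24, adjusted p = 0.497). The count of higher genes here was 0 without WT replicate 2 or MLST8-KO replicate 1, and 6 without WT replicate 1.

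CCND1 and CDKN1C both lie on chromosome 11, on opposite arms, and their neighbours were read as well. Of 11 genes beside CCND1 on 11q13, a region often amplified in squamous cancers, 9 were listed and 8 tested, with 1 higher and 4 lower and a median of -0.18. TPCN2 rose by 0.55 (SE 0.14, edgeR, adjusted p = 0.0160), FGF19 fell by 1.38 (SE 0.20, adjusted p = 0.00281) and FADD fell by 0.43 (SE 0.12, adjusted p = 0.0218). The FGF19 call held in all 6 fits that left out 1 library, whereas TPCN2 and FADD lost theirs without WT replicate 2 or MLST8-KO replicates 1 or 2 (adjusted p up to 0.0662 and 0.0909), which left 1 lower gene. On log2(TPM + 1) limma also called 1 lower gene.

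Of 10 genes beside CDKN1C on 11p15, 8 were listed and tested, with 0 higher and 4 lower and a median of -0.22. SLC22A18 and PHLDA2, which like CDKN1C are imprinted and expressed from the maternal copy, fell by 0.76 (SE 0.10, edgeR, adjusted p = 0.00281) and by 0.68 (SE 0.13, adjusted p = 0.00575). Both calls held in all 6 fits that left out 1 library, and the list kept 3 or 4 lower genes in them. The other lower genes were CARS1 (-0.51, edgeR, adjusted p = 0.00618) and TSSC4 (-0.36, adjusted p = 0.0340). KCNQ1 (0.24), IGF2 (0.38) and NAP1L4 (0.09) had values above 0 with no call. CDKN1C itself, with 18 to 68 counts per library, had the same sign without a call.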

How the data were processed

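RNA-seq covered 6 samples of HCC2814 cells, 3 WT and 3 MLST8-KO, grouped by their labels. The authors aligned reads to GRCh38.p12 with HISAT, assigned them to genes with Bowtie2, and deposited estimated counts (not normalized). They also deposited TPM and FPKM values, scaled by gene length and depth. A second deposited table holds the authors' own fold changes and p-values and was not used. Of the 17448 symbols, 25 had become dates in a spreadsheet and were restored by Entrez identifier. As 12.4% of the counts were not whole, they were rounded before testing.

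Groups were compared with edgeR 4.0.16 (R 4.3.3; TMM, filterByExpr, quasi-likelihood test, no replicate block), with Benjamini-Hochberg adjustment over 12951 genes and a threshold of 0.05. SE was the size of the log2 fold change over the root of F. Family sums and shares used TPM and exact permutation tests. Alternatives were DESeq2 1.42.0, its size factors, upper quartile scaling, a filter of at least 10 counts in every sample, no filter, limma 3.58.1 on log2(TPM + 1) and log2(TPM + 0.1), FPKM or CPM for the sums, a replicate block, and leaving out each library. The fit was tested on simulated data. Members and lists were chosen with earlier results of these data known. Named were the 10 genes, MLST8 and the 3 genes most like CDKN1C. The called list members with the largest rise and fall were also named (up to 2 each way in lists of at most 12 genes). CDKN2A, RB1, SKP2, MDM2, GINS1, uncalled CDK2 partners and further genes beside CDKN1C were named after their values were seen. Coordinates are GENCODE 29 on GRCh38; promoters are RefSeq. Figures used matplotlib 3.10.9.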

Additional observations from a re-analysis of the deposited data

How the results depend on the processing

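Across the alternatives run, MLST8 and CDKN1A kept their direction and call in every fit. The size of the CDKN1A change was smaller with upper quartile scaling (-0.36) and by limma with either pseudocount (-0.31 each) than in the main fit (-0.42). CCND1 (0.30, no call) was called by DESeq2 (0.29), with upper quartile scaling (0.35) and by limma on log2(TPM + 1) and log2(TPM + 0.1) (0.41 each), and CDKN1B (0.35) lost its call with DESeq2 (0.34), DESeq2's size factors (0.34) and no filter (0.34). Leaving out 1 library gave log2 fold changes of 0.22 to 0.41 for CCND1, -0.07 to 0.21 for CCND3, 0.11 to 0.29 for CCNE1, 0.46 to 0.96 for CCNE2, 0.24 to 0.34 for CDK4, 0.11 to 0.33 for CDK6, 0.29 to 0.45 for CDKN1B and -1.34 to -0.51 for CDKN1C. Without WT replicate 3 CCND3 turned to -0.074, and without MLST8-KO replicate 3 to -0.01. The CDK4 share of CDK4 plus CDK6, 0.14 percentage points higher in MLST8-KO cells, turned to -0.51, -0.09 and -0.07 in the fits lacking WT replicate 2, MLST8-KO replicate 1 and MLST8-KO replicate 3 in turn (range -0.51 to 0.83). With 1 library left out, 0 to 3 of the 9 G1 genes were called higher and 1 or 2 lower. There were 0 higher without WT replicate 2, MLST8-KO replicate 1 or MLST8-KO replicate 2, and 1 higher without MLST8-KO replicate 3. Without WT replicate 1, 2 were lower. Upper quartile scaling and limma with either pseudocount each called 4 G1 genes higher. Over all genes, leaving out 1 library gave 971 to 2692 higher and 850 to 2651 lower. The count fell below the 1.5-fold range without WT replicate 2 (971 higher, 1044 lower), MLST8-KO replicate 1 (979 and 850) and MLST8-KO replicate 2 (1136 and 1091). Limma on TPM called 2782 and 2764 higher, and 1134 and 1132 lower, with the 2 pseudocounts. The higher share of all calls was 51.0% by edgeR, 62.0% with upper quartile scaling and 71.0% and 70.9% by limma on TPM, where the median of all genes was 0.09 and 0.10. Relative to that shift the CCND1 value of limma is close to that of edgeR. The D cyclin, E cyclin and CIP/KIP sums, the CCND1 and CDKN1A shares and the ratio of D cyclins to CIP/KIP kept their direction with FPKM, CPM and each library left out; no alternative was run for the CDK4 plus CDK6 sum or the CCNE2 share. The causes were not tested.

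With a replicate block, 2261 genes were higher and 2157 lower, CCND1 was called (0.31, adjusted p = 0.0229) and CDKN1B was not (0.35, adjusted p = 0.0674); the block changed no other call among the G1 genes. Same-numbered samples had correlations of 0.10, 0.06 and 0.14 of their deviations from the group means, and each sample correlated best with its own number, which is a hint from the data only, as the labels tie a number to no shared culture. The design of 3 against 3 cannot reach 0.05 in an exact permutation test, and CCND2 and CDKN1C are limited by their few counts.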
